A study of Mus musculus with 2 samples.

Results

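EP300 binding in newborn mouse liver was examined at 9 genes of aromatic amino acid breakdown: Tat, Hpd, Hgd, Gstz1, Fah, Tdo2, Kmo, Kynu and Haao. They were chosen by name for their place in the pathways, and are 9 of 21938 protein-coding genes on the chromosomes analysed. The choice was made with earlier results of these data known, so shares set beside those of all genes are descriptions only. Every EP300 summit within 50 kb of any annotated transcription start site (TSS) of a member was taken, which gave 46 of the 26844 summits of the optimal peak list, and no member was without one. EP300, also called p300, acetylates histones at enhancers and promoters, where transcription factors recruit it, and chromatin immunoprecipitation sequencing (ChIP-seq) maps where it sits. The 1 group held 2 replicates of liver from mice of strain B6NCrl at age 0 days, with no treatment or altered allele in the labels and with sex not collected. Both replicates carry 1 biosample label and 1 donor label, and nothing says that they came from separate animals, so their spread may be technical. There was no second condition, so every result is a description of binding in this tissue.

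The liver is the main organ that burns phenylalanine, tyrosine and tryptophan. On the tyrosine branch, Tat encodes tyrosine aminotransferase, Hpd encodes hydroxyphenylpyruvate dioxygenase, Hgd encodes homogentisate dioxygenase, Gstz1 encodes maleylacetoacetate isomerase and Fah encodes fumarylacetoacetate hydrolase, which yields fumarate and acetoacetate and whose loss causes tyrosinemia. On the tryptophan branch, Tdo2 encodes tryptophan dioxygenase, the entry step of the kynurenine pathway, followed by Kmo (kynurenine monooxygenase), Kynu (kynureninase) and Haao (hydroxyanthranilate dioxygenase), which lead toward NAD. Tat and Tdo2 are textbook genes of glucocorticoid induction in rat liver, and upstream enhancers of rat Tat that respond to glucocorticoids and cyclic AMP have been described.

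The optimal list was made by the authors from both replicates under an irreproducible discovery rate (IDR) rule. Its signal value is the authors' score per peak on a scale that is not stated, and it is used here to rank peaks within a list. The signal values of the optimal list are those of both replicates together, so they are not a further replicate. The optimal list had a median signal of 38.3, and its values ranged between 7.32 and 633. The deposited lists hold no read counts, so depth is unknown, and no counting interval can be given. As a check of the label, all 7 hepatocyte markers had a summit within 50 kb, against 65.9% of all protein-coding genes. Within 10 kb 6 had one, against 41.0%, and the median of their strongest signals within 50 kb was 109. All 6 erythroid markers had one within 10 kb, with a median of 305, and the newborn liver is known to make blood. Within 10 kb, 3 of 4 endothelial markers had a summit, and none of the 4 Kupffer cell, 3 muscle, 3 neuron or 3 pancreas markers did (3, 1, 2 and 1 within 50 kb). The median strongest signal within 50 kb was 154 for endothelial markers, above that of the hepatocyte markers, with values between 9.14 at Cdh5 and 211 at Lyve1. The strongest summits of Stab2 and Lyve1 were nearest to a TSS of another gene. So were those of the hepatocyte markers Apoa1, Fgb, Serpina1a and Hnf4a. The median was 31.5 for Kupffer cell, 41.7 for muscle and 37.5 for neuron markers. The 1 pancreas marker with a summit, Cel, had 554, where the nearest TSS was that of Gfi1b. The part of each cell type in the values at the 9 genes was not tested. In bulk tissue, fewer cells of a type and less binding per cell cannot be told apart.

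The sequences around the strongest summit within 10 kb of each gene are shown first, because they are the stretches on which the description of the members turns. Each runs 50 bases to either side of the summit, in RefSeq's GRCm38.p6 sequence (build mm10), and is written 5′ to 3′ on the strand of the gene. Capitals mark a match, on either strand, to 1 of 11 short consensus sequences. The letters searched were TGTTTAC for FOXA, TTGCNNAA for CEBP, CAAAGTC for HNF4, GTTAATNAT for HNF1, AGGTCA for nuclear receptors, ACANNNTGT for steroid receptors, AGATAA for GATA, TTCNNNGAA for STAT, TGACGTCA for the cyclic AMP response element, TGANTCA for AP1 and CCAAT for NFY.
Tat, 2.46 kb upstream, chr8:109987926-109988026, plus strand: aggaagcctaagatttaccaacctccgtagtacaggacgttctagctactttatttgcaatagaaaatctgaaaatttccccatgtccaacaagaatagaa
Hpd, 0.361 kb downstream of an internal TSS, chr5:123181656-123181756, minus strand: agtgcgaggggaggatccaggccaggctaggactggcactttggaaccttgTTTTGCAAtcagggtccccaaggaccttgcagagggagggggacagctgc
Hgd, 6 bases upstream, chr16:37580097-37580197, plus strand: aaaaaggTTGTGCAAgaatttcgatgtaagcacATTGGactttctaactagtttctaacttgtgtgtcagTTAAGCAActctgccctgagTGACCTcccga
Gstz1, 70 bases upstream of an internal TSS, chr12:87157488-87157588, plus strand: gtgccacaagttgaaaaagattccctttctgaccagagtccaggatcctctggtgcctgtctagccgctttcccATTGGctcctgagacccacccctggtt
Fah, 1.07 kb downstream of an internal TSS, chr7:84604610-84604710, minus strand: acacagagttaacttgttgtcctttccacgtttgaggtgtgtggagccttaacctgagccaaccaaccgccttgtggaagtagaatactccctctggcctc
Tdo2, 6.06 kb upstream, chr3:81982212-81982312, minus strand: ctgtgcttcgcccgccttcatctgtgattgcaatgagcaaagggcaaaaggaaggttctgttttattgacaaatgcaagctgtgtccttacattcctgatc
Kmo, 3.46 kb downstream, chr1:175623794-175623894, plus strand: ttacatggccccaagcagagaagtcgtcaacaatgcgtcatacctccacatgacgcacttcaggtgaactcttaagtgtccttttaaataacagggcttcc
Kynu, 0.746 kb downstream, chr2:43556050-43556150, plus strand: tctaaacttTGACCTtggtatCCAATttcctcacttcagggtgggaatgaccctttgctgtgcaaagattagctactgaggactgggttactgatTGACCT
Haao, 0.313 kb upstream of an internal TSS, chr17:83836231-83836331, minus strand: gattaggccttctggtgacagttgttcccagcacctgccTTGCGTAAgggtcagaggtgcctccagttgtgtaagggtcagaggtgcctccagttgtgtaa

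The Hgd window had the most matches of these, with CEBP letters (TTGTGCAA and TTAAGCAA), the nuclear receptor letters (TGACCT) and the NFY letters on the other strand (ATTGG) around the start of transcription. The Hpd window held 1 CEBP match (TTTTGCAA) and the Haao window another (TTGCGTAA). The Kynu window held the nuclear receptor letters on both of its flanks and CCAAT between them. The windows of Tat, Fah, Tdo2 and Kmo held none of the 11 letter strings, which says only that these letters are not in these windows.

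In the optimal list, EP300 summits lay within 10 kb of a TSS of all 9 genes, with the nearest one of Tdo2 the most distant, at 6.06 kb. A summit lay within 50 kb of all 9, against 65.9% of all protein-coding genes, and all 9 had one within 10 kb, against 41.0%. The 10 kb count was 8 of 9 with TSSs of protein-coding transcripts only, where Haao had none. It was 7 of 9 with the conservative list, where Tdo2 and Kynu had none. Shares of all genes under these alternative settings at 10 kb were not computed, and the 41.0% does not apply to them. Within 1 kb of a TSS, a summit was found at 7 of 9 members, against 23.8% of all genes, and the members without one were Tdo2 and Kmo. That count depends on which start sites are taken. With TSSs of protein-coding transcripts only it was 5 of 9 against 22.2%, and with the 5′ end of the gene record only it was 4 of 9 (Tat, Hgd, Fah and Kynu) against 19.6%. The median distance between the nearest summit and a TSS was 361 bases over the members and 4622 bases over the 14461 genes with a summit within 50 kb. That distance also depends on the start sites, since the 361 bases of Hpd were counted from the start of a noncoding isoform. The nearest TSSs at Gstz1 (70 bases) and Haao (313 bases) were internal starts too. Those summits of Hpd, Gstz1 and Haao lay 1.02, 10.4 and 11.7 kb from the 5′ end of the gene record. Members had a median of 4 summits within 50 kb, against 2 over all genes, with 15 at Hpd, 8 at Fah and 2 each at Kynu and Haao.

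**Figure D1:**
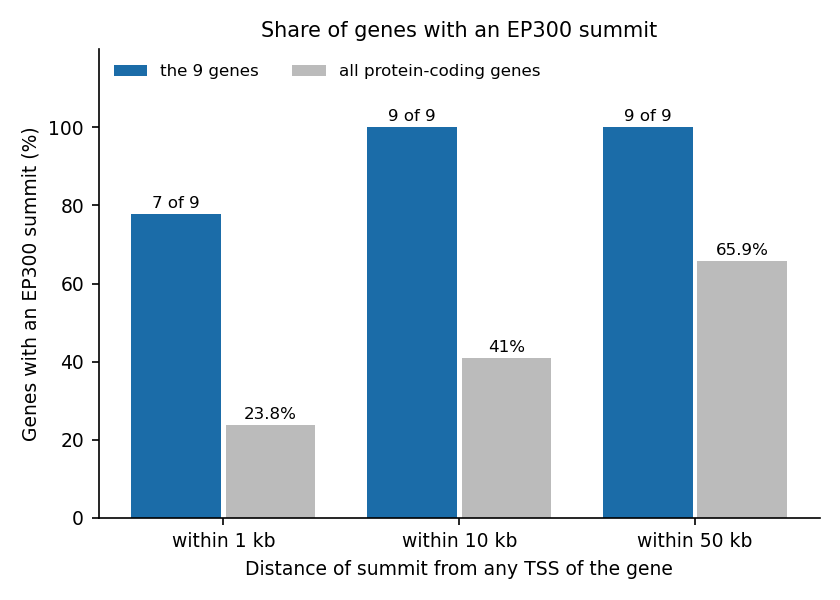
Share of genes (%, vertical axis) with an EP300 summit within 1, 10 and 50 kb of any TSS (horizontal axis), for the 9 genes (blue bars) and for all 21938 protein-coding genes (grey bars). The blue bars stand at 7, 9 and 9 of 9, and the grey bars at 23.8%, 41.0% and 65.9%.

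The signals of the 46 summits ranged between 14.0 and 210, and the strongest had rank 1117 of 26844. Their median signal was 48.9, with quartiles of 28.3 and 80.8, against a median of 38.3 with quartiles of 26.3 and 63.7 over the whole list. Of the 46 summits, 9 (19.6%) exceeded a signal of 100, against 13.3% of all summits, and they lay at Hpd (3), Fah (3), Tat (1), Gstz1 (1) and Tdo2 (1). No summit of Hgd, Kynu, Kmo or Haao reached 100. Only 3 of the 9 lay within 10 kb of a TSS of the member. Here the nearest protein-coding TSS means the nearest start of any transcript of a protein-coding gene, noncoding isoforms included. In 25 of the 46 cases the nearest protein-coding TSS was that of the member itself, and in 21 it belonged to another gene. With such nearest summits alone, 8 of 9 members had one, against 41.1% of all genes, and Tdo2 had none. The summits lay upstream of the gene record in 22 cases and inside the gene in 16, of which 11 were in an intron.

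**Figure D2:**
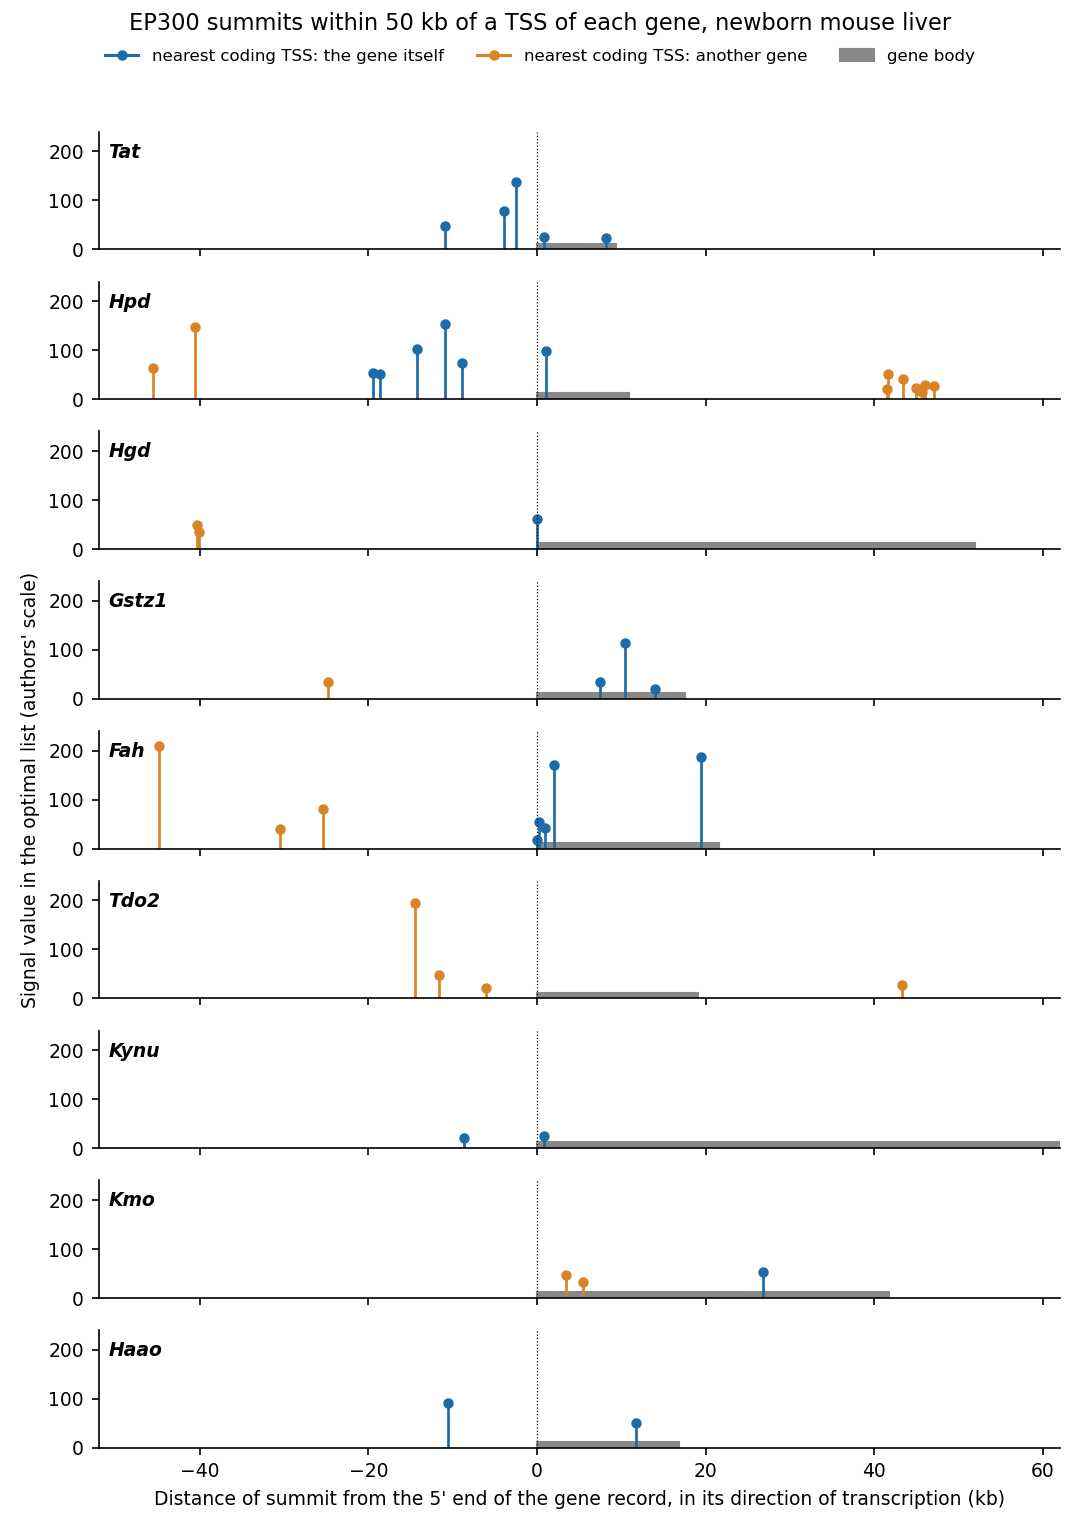
Signal value in the optimal list (vertical axis, authors' scale) of each of the 46 summits against its distance in kb from the 5′ end of the gene record (horizontal axis, positive in the direction of transcription), 1 panel per gene, with the gene body as a grey bar (that of Kynu runs past the edge). Blue summits have the member as nearest protein-coding TSS and orange ones another gene, as all 4 of Tdo2 do. Tat carried 3 summits upstream, Hpd a run of 5 between 8.96 and 19.5 kb upstream, and Fah strong summits at both ends of the gene.

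Tat (ENSMUSG00000001670.13, chr8:109990437-109999803, plus strand) had a run of 3 upstream summits and 2 weaker ones inside the gene. The strongest lay 2.46 kb upstream in intergenic sequence (chr8:109987868-109988041), with a signal of 138 and rank 2244 of 26844. Its matched peaks had 91.5 in replicate 1 (rank 2172) and 43.9 in replicate 2 (rank 2585). The next lay 3.88 kb upstream with 78.8 (55.2 in replicate 1 and 23.3 in replicate 2). A summit 10.9 kb upstream had 48.3 (29.2 in replicate 1 and 17.9 in replicate 2). Both replicates thus ordered the upstream summits alike, with the highest nearest to the gene. The intronic summits were weaker. The one 0.814 kb downstream of a TSS had 25.6 (12.1 in replicate 1 and 12.2 in replicate 2). The other, 8.10 kb downstream, had 23.7, with 7.79 in replicate 1 (rank 85605) and 16.2 in replicate 2 (rank 10213). Neither intronic summit was in the conservative IDR list, while the 3 upstream ones were. All 5 had Tat as the nearest protein-coding TSS. Of the 3 upstream windows, that at 3.88 kb held a match, to the nuclear receptor letters, and those at 2.46 and 10.9 kb held none. The window at the promoter summit had none.
Tat, 0.814 kb downstream, chr8:109991270-109991370, plus strand: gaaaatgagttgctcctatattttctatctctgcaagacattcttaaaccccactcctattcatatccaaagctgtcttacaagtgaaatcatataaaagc

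Hpd (ENSMUSG00000029445.13, chr5:123171807-123182727, minus strand) had more summits than any other member, 15, which is more than 99.2% of protein-coding genes had within 50 kb. They fell into groups, and some neighbours among them had overlapping intervals. A run of 5 summits stood between 8.96 and 19.5 kb upstream, in sequence that is also intronic to long transcripts of Psmd9 and of the noncoding gene Gm26745, and had Hpd as the nearest protein-coding TSS. The strongest of the run, 10.9 kb upstream (chr5:123193520-123193696), had a signal of 153 and rank 1918, with 105 in replicate 1 and 53.5 in replicate 2. The others of the run had 103 at 14.2 kb, 73.0 at 8.96 kb, 54.0 at 19.5 kb and 52.0 at 18.7 kb. All 5 were in the conservative list and matched peaks among the strongest 26844 of each replicate. Its leading summit, chosen for display after its values were seen, lay in this sequence, with GATA letters in capitals.
Hpd, 10.9 kb upstream, chr5:123193544-123193644, minus strand: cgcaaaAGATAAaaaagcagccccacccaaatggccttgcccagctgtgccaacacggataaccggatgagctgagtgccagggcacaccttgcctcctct

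Inside Hpd, a single summit with 98.6 (70.1 in replicate 1 and 31.0 in replicate 2) lay in an exon of a noncoding isoform, 1.02 kb from the 5′ end of the gene record. It was 0.361 kb from the TSS of that isoform, so its place at a promoter rests on that start site. The other 9 summits had a neighbour as nearest protein-coding TSS. A summit of 148 (92.2 in replicate 1 and 55.5 in replicate 2), 40.6 kb upstream, lay in an intron of Psmd9, a proteasome assembly gene, and another with 63.3 lay 3 bases from a Psmd9 TSS. The 7 summits between 31.6 and 37.2 kb downstream of a TSS had signals between 14.0 and 50.6, and were nearest to Setd1b, a histone methyltransferase gene, or to Rhof. Intervals overlapped for the summits at 31.6 and 31.8 kb, and for those at 35.9 and 36.2 kb. Each of these pairs matched the same peak in each replicate.

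Hgd (ENSMUSG00000022821.13, chr16:37580153-37632020, plus strand) had 1 summit of its own, and it stood on the start of the gene. It lay 6 bases upstream of the TSS (chr16:37579955-37580338), with a signal of 60.5 and rank 7211. Its matched peaks had 39.0 in replicate 1 (rank 7768) and 19.9 in replicate 2 (rank 7672), so the ranks in both replicates and in the joint list were close. The remaining 2 summits, with 49.6 and 35.7, lay 40.3 and 40.1 kb upstream at the promoter of Rabl3. Their intervals overlapped, and they matched the same peak in each replicate.

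Gstz1 (ENSMUSG00000021033.11, chr12:87147165-87164723, plus strand) had its EP300 signal in the middle of the gene and no optimal summit at its 5′ end. The strongest summit, in an intron 10.4 kb into the gene record (chr12:87157346-87157729), had a signal of 114 and rank 2939. Its matched peaks had 78.5 in replicate 1 and 34.4 in replicate 2. It stood 70 bases upstream of the TSS of a short protein-coding transcript, and the window held a reversed CCAAT. A summit 7.46 kb into the gene had 33.7 (22.9 in replicate 1 and 10.6 in replicate 2) and lay near the start of a retained-intron transcript. The last, 13.9 kb into the gene, had 20.6, and its matched peak in replicate 2 ranked 160944, far outside the strongest peaks of that list. The fourth summit, with 34.2, lay in an intron of the neighbour Pomt2. The window of the summit at 7.46 kb held CEBP letters (TTGTGCAA), the same 8 bases as in the Hgd window.
Gstz1, 0.738 kb downstream of an internal TSS, chr12:87154572-87154672, plus strand: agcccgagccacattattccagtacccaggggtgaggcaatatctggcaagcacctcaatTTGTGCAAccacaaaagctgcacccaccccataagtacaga

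Fah (ENSMUSG00000030630.16, chr7:84585159-84606722, minus strand) carried EP300 at both ends of the gene. A summit in an intron, 19.5 kb into the gene (chr7:84587164-84587374), had a signal of 187 and rank 1364, with 118 in replicate 1 and 65.2 in replicate 2. Another intronic summit, 2.06 kb into the gene (chr7:84604468-84604851), had 171 and rank 1597, with 105 in replicate 1 and 70.0 in replicate 2. Weaker summits crowded the promoter. They lay 23 bases, 0.229 kb and 0.905 kb from the 5′ end of the gene record with 18.6, 54.4 and 43.1. The pair at 23 bases and 0.229 kb had overlapping intervals and matched the same replicate peaks (41.8 in replicate 1 and 18.1 in replicate 2), so the replicate lists do not separate them. The summit at 0.905 kb had 27.5 in replicate 1 and 16.5 in replicate 2. The promoter windows held overlapping CEBP matches in both orientations within a stretch of 10 bases at 0.229 kb, a reversed CCAAT at 0.905 kb and none of the letters at 23 bases.
Fah, 23 bases downstream, chr7:84606649-84606749, minus strand: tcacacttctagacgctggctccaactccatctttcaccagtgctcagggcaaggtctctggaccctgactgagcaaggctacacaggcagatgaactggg
Fah, 0.229 kb downstream, chr7:84606443-84606543, minus strand: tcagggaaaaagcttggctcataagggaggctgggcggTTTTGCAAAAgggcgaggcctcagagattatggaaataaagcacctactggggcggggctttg
Fah, 87 bases downstream of an internal TSS, chr7:84605767-84605867, minus strand: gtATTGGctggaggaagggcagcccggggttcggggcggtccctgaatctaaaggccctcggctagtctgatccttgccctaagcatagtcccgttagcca

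The strongest of the 46 summits, with 210 and rank 1117, was counted for Fah at 44.8 kb upstream, in an intron of Zfand6, whose TSS was 17.2 kb away. It had 125 in replicate 1 and 82.9 in replicate 2. Its window, shown as the strongest of all 46, held none of the letters.
Fah, 44.8 kb upstream, chr7:84651459-84651559, minus strand: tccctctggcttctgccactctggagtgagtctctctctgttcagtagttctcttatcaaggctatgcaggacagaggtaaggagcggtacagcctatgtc

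A further Fah pair, 25.4 and 30.4 kb upstream with 81.5 and 39.0, also lay in introns of Zfand6, 2.25 and 2.82 kb from its nearest TSSs. Distance alone does not say which gene such a summit serves.

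Tdo2 (ENSMUSG00000028011.16, chr3:81957090-81976202, minus strand) differed in layout from Tat, the entry gene of the other branch, in that none of its 4 summits had Tdo2 as the nearest protein-coding TSS. A strong summit lay 14.5 kb upstream (chr3:81990498-81990781), with a signal of 194, rank 1279, 126 in replicate 1 (rank 1258) and 71.1 in replicate 2 (rank 1253). It was in an intron of Asic5, an ion channel gene, 6.26 kb from a TSS of that gene. A weaker summit in the same gene, 11.6 kb upstream, had 46.8 (30.6 in replicate 1 and 15.6 in replicate 2). The summit within 10 kb had only 20.6 (9.42 in replicate 1 and 11.2 in replicate 2) and stood 28 bases from an Asic5 TSS. The fourth, with 27.9, lay at Ctso and was uneven, with 27.7 in replicate 1 and 4.43 in replicate 2. The window of the strong summit, chosen for display after its values were seen, held a CEBP match (TTGCAAAA) and a reversed CCAAT.
Tdo2, 14.5 kb upstream, chr3:81990609-81990709, minus strand: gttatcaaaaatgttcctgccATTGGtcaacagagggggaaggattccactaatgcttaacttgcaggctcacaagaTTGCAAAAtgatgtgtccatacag

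Kmo (ENSMUSG00000039783.15, chr1:175620381-175662116, plus strand) had 3 summits, all inside the gene. The strongest, 26.8 kb into the gene record and in a coding exon (chr1:175646996-175647379), had 52.9 and rank 8730, with 36.3 in replicate 1 and 17.4 in replicate 2. The summits 3.46 and 5.46 kb downstream of the 5′ end of the gene record had 47.2 and 33.6. That end is the start of a transcript labelled for nonsense-mediated decay, not of a protein-coding transcript. A start of the neighbour Fh1, which encodes fumarate hydratase, lay closer to each summit than any of Kmo. The summit at 3.46 kb was as high in replicate 2 (23.3) as in replicate 1 (23.1).

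Kynu (ENSMUSG00000026866.16, chr2:43555329-43682715, plus strand) had the weakest EP300 signal of the 9. Its intronic summit 0.746 kb downstream of a TSS had 25.6 and rank 20618, with 19.2 in replicate 1 and 5.56 in replicate 2 (rank 72852). The summit 8.65 kb upstream had 21.2, with 12.0 in replicate 1 and 5.94 in replicate 2. Neither was in the conservative list or matched one of the strongest peaks of replicate 2, and without replicate 1, with the conservative list or with the top 50% of the optimal list, Kynu had no summit within 50 kb. Among all genes with a summit within 50 kb, only 6.00% had a strongest signal below that of Kynu.

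Haao (ENSMUSG00000000673.9, chr17:83831156-83847963, minus strand) had an upstream and an intronic summit. The upstream one, at 10.6 kb in intergenic sequence (chr17:83858389-83858772), had 92.1 and rank 3990, with 53.2 in replicate 1 and 39.3 in replicate 2. Its distance was counted from the 5′ end of the gene record, which is the start of a retained-intron transcript. The intronic one, 11.7 kb into the gene record, had 49.9, with 30.9 in replicate 1 and 14.4 in replicate 2. Its nearest TSS was that of a retained-intron transcript, and no TSS of a protein-coding transcript lay within 10 kb. Its interval held a tandem repeat, with a stretch of 40 bases equal to the bases 27 further on, which can be seen in the sequence above as a repeated run. The sources used here do not state how multiply aligned reads were handled, so the value at that summit is uncertain.

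By the strongest summit within 50 kb, the order of the members was Fah (210), Tdo2 (194), Hpd (153), Tat (138), Gstz1 (114), Haao (92.1), Hgd (60.5), Kmo (52.9) and Kynu (25.6). The first 5 exceeded 87.9%, 86.1%, 80.0%, 77.1% and 71.1% of the 14461 genes with a summit at that distance, and the last 3 exceeded 44.2%, 36.8% and 6.00%. The median over the 9 was 114, against 68.3 over those genes. Within 10 kb the order changed, with Fah at 171, Tat at 138, Gstz1 at 114 and Hpd at 98.6 ahead of Hgd at 60.5, Haao at 49.9, Kmo at 47.2, Kynu at 25.6 and Tdo2 at 20.6, a median of 60.5 against 50.7 for genes with a summit within 10 kb. The matched peaks of the strongest summits kept the order of the 50 kb values in each replicate with an exchange of neighbours. Tdo2 stood ahead of Fah in replicate 1 (126 and 125), and Haao ahead of Gstz1 in replicate 2 (39.3 and 34.4). The order within these pairs was thus not the same in both replicates.

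**Figure D3:**
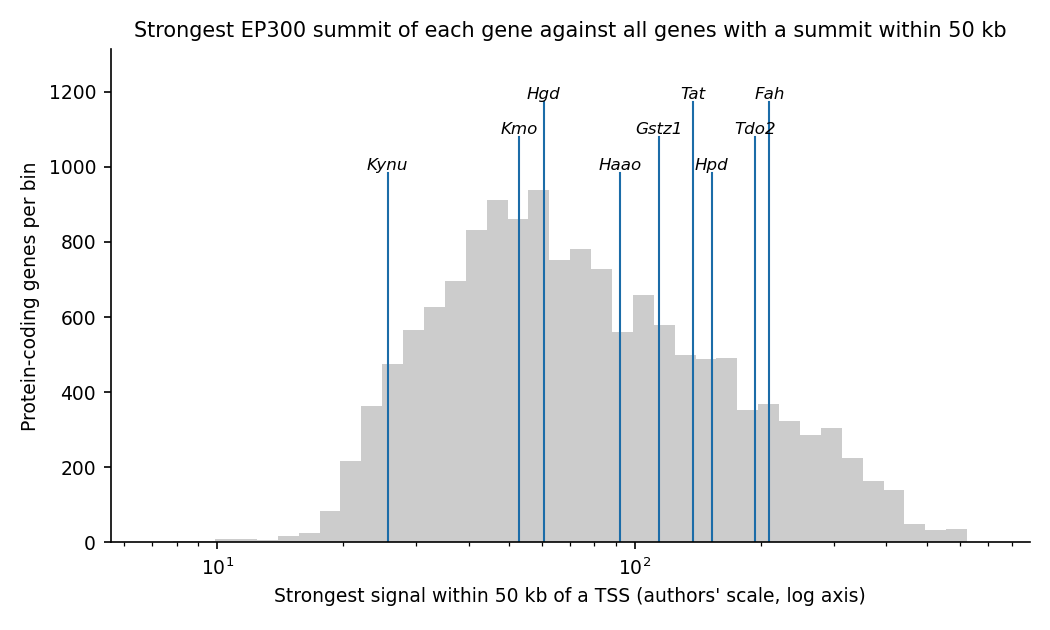
Number of protein-coding genes per bin (vertical axis) by the strongest signal within 50 kb of a TSS (horizontal axis, authors' scale, log axis), over the 14461 genes with a summit there (grey), with the 9 genes as labelled blue lines whose height has no meaning. Kynu, at 25.6, lies at the low end, and Tdo2 and Fah, at 194 and 210, lie above most genes.

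All 46 summits overlapped a peak of replicate 1 and a peak of replicate 2, against 99.8% and 95.9% of all optimal summits, and these shares are not independent of the list, which was made from the replicates. Fewer matched one of the strongest 26844 peaks, 40 of 46 (87.0%) in replicate 1 against 85.9% of all, and 38 of 46 (82.6%) in replicate 2 against 76.4%. The conservative list held 35 of 46 (76.1%), against 74.4% of all. These shares lay near those of the whole list. Neighbouring summits shared matches, so that the 46 corresponded to 42 separate peaks in each replicate. Across the 46, signal values of the replicates had a Spearman's rho of 0.85, and 0.87 over the 42 with peaks of their own, against 0.73 over 25702 optimal peaks. These points share the same libraries and the selection for agreement. Values were higher in replicate 1 by a median log2 ratio of 0.97 (SD 0.60, 46 summits), against 0.95 (SD 0.65) over all peaks, on unstated scales that may differ between the lists. Replicate 1 was not higher at 4 summits, which were both intronic ones of Tat, that of Tdo2 at 6.06 kb and that of Kmo at 3.46 kb.

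**Figure D4:**
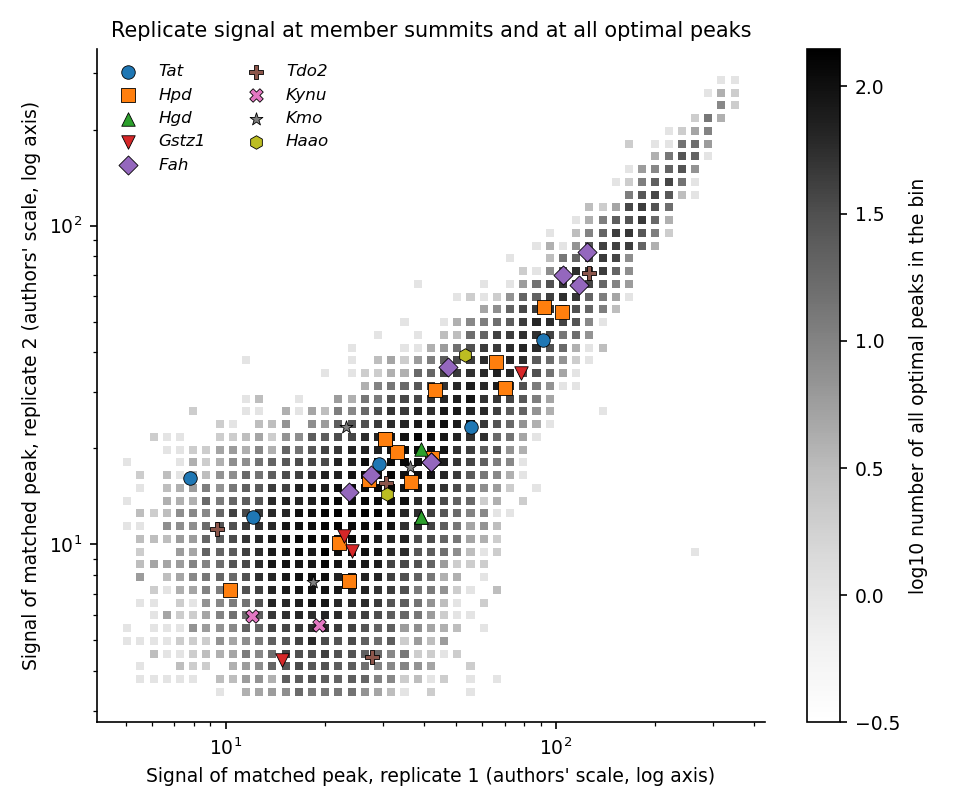
Signal of the matched peak in replicate 2 (vertical axis) against replicate 1 (horizontal axis), both on log axes in the authors' scales, for the 46 summits (coloured symbols by gene) over all 25702 optimal peaks matched in both replicates (grey squares, darker for more peaks). The strong summits of Fah, Tdo2, Hpd and Tat lie along the main band, while a weak summit of Tat and one of Tdo2 lie off it, to opposite sides.

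Among the 46 summit windows, CEBP letters were found in 9 (19.6%), against 8.93% of all optimal summits, and these 9 were spread over 6 genes. They stood in 4 windows of Hpd and in 1 each of Hgd, Gstz1, Fah, Tdo2 and Haao. Of these windows 6 are printed above, 1 for each of the 6 genes, and the other 3, all of Hpd, are not. Those of Hpd at 40.6 kb upstream and 31.8 kb downstream, and that of Tdo2, had another gene as nearest protein-coding TSS. CCAAT was found in 9 (19.6%), against 13.1%. GATA letters were found in 7 (15.2%), against 22.3%, and in 4 of 50 windows without replicate 1, where the share of all summits was not computed. Nuclear receptor letters were found in 5 (10.9%) against 9.12%, steroid receptor letters in 2 (4.35%) against 5.97%, STAT letters in 2 (4.35%) against 4.95% and FOXA letters in 1 (2.17%) against 3.06%. No window held the letters for HNF4 (2.94% of all summits), HNF1 (0.432%), the cyclic AMP response element (0.425%) or AP1 (5.62%). These are counts of letters in 1 list, with several windows per gene, and letters alone do not identify a bound protein. Some match was present in 28 (60.9%), against 57.5%. The windows had a median GC content of 50.5%, against 47.5% over all summits, and none was 50% or more soft-masked repeat, against 3.74% of all.

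Summits between 50 and 100 kb numbered 20, so the limit matters for some genes. The nearest of them lay 53.9 kb from a TSS of Hpd (33.1) and 54.0 kb from one of Tdo2 (26.6), and the farthest inside were those 45.5 kb from Hpd (63.3) and 44.8 kb from Fah (210).

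The rest of the pathway was examined with a list of 25 further genes, of which 21 had a summit within 50 kb, against 65.9% of all protein-coding genes. Within 10 kb 17 had one, against 41.0%, and within 1 kb likewise 17, against 23.8%. The median of their strongest signals was 111. The highest values were 484 at Slc16a10, an aromatic amino acid transporter gene, 276 at the promoter of Acmsd, an enzyme gene that draws kynurenine metabolites away from NAD, and 265 near Gchfr, where the nearest TSS was that of Rmdn3. No summit lay within 50 kb of Ido1 and Ido2, which encode the other enzymes that open the tryptophan ring, nor of Maoa or Th.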

How the data were processed

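EP300 was profiled by ChIP-seq in 2 replicates of 1 group. The deposited peak lists on mm10 give a signal value per peak (narrowPeak column 7), and per the deposited file descriptions the authors called them on alignments against a control, and derived the IDR lists from both replicates' lists plus a pooled one, which was not analysed here. No source used here gives the aligner, peak caller, IDR threshold or depth. The optimal list held 26883 peaks, of which 26844 on chromosomes 1 to 19 and X were used, and each replicate list held 300000. Genes of chromosome Y, where the optimal list had no peak, were counted among all protein-coding genes and so lower the shares of all genes. The series files held 0 columns of other series.

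A summit was column 2 plus column 10, written 1-based. TSSs were all transcript starts of GENCODE mouse release M21 (GRCm38). A replicate peak matched when it overlapped by at least 1 base, and the one with the highest signal was used. Sequences came from the GRCm38.p6 RefSeq genome (pysam 0.24.0, samtools 1.23.1, Python 3.11.15), whose bases equalled the RefSeq promoter sequence of all 9 members. Searches were checked on planted data. The alternatives were other lists, TSS sets, distances and matching rules, and lists without either replicate. No test was made, as there is 1 group and no contrast. The members, gene lists, motifs and the naming rule were chosen with earlier results of these data known. By that rule all 9 members are described with each summit within 10 kb and the strongest within 50 kb, and among the further pathway genes the 3 strongest and those without a summit are named. Sequences are those of the strongest summit within 10 kb and of promoter summits. The displayed windows of the strongest summits within 50 kb of Hpd, Fah and Tdo2 were added after their values were seen.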

Additional observations from a re-analysis of the deposited data

How the results depend on the processing

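All 9 members kept a summit at 25 kb, at 100 kb, with TSSs of protein-coding transcripts and with 5′ ends of gene records, and 8 did with nearest TSSs only, where Tdo2 had none. Kynu had none without replicate 1, with the conservative list and with the top 50% of the optimal list. Within 10 kb, Tdo2 had none without replicate 2, with the conservative list and with the top 50%, and Haao had none with TSSs of protein-coding transcripts or 5′ ends of gene records. Within 1 kb, Tat had none with the conservative list and with the top 50%. Except for the nearest-TSS rule and the 1 kb counts with other TSS sets, shares of all genes under these settings were not computed. The number of summits was 29 with the top 50% and 25 with nearest TSSs only, against 46, and the number of members with a summit within 1 kb was 4 with 5′ ends of gene records, against 7. The median signal was 63.3 with the top 50%, and 15.8 without replicate 1 and 30.9 without replicate 2, in lists whose own medians were 13.3 and 26.5, so that these follow the scale of each list. The share matched in replicate 1 was 91.3% when 50% of both peaks had to overlap and 87.0% with its strongest peaks only, and in replicate 2 it was 84.8% and 82.6%, and 89.1% for summits within 100 bases. Merging overlapping peaks, an alternative chosen after seeing the data, gave 42 summits with a median of 50.3. With 100 bases on each side of the summit, 36 of 46 windows held a match, against 28, and those with NFY letters numbered 16 against 9, nuclear receptor 8 against 5, steroid receptor 4 against 2, and HNF4 and HNF1 1 each against 0. A wider window has more room for short letters, and the shares of all summits at that width were not computed. Without replicate 1, of 50 windows 4 held GATA letters, 3 nuclear receptor, 2 FOXA and 1 HNF4 letters, against 7, 5, 1 and 0 of 46, and without replicate 2, 1 of 43 held STAT letters, against 2. Shares of all summits were not computed for those lists either. No paired analysis was possible because there is 1 group and no test.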

Other observations

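Among the strongest 26844 peaks of each replicate, 5 of 43 in replicate 1 and 13 of 50 in replicate 2 within 50 kb of a member overlapped no optimal peak, which is 11.6% and 26.0%, against 17.7% and 27.1% of all 26844. The shares near the members were thus close to or below those of each whole list. Of these, 1 place was among the strongest of both replicates, about 3.4 kb upstream of Hpd, with 23.1 in replicate 1 (rank 16067) and 10.3 in replicate 2 (rank 19118). A replicate 1 peak with 16.2 and rank 25431 stood 23 bases from the TSS of Tat, where the optimal list has no summit, and its counterpart in replicate 2 had 5.74 and rank 67551. At the 5′ end of Gstz1, replicate 1 had a peak of 17.1 (rank 23681) and replicate 2 had none that overlapped it.

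Upstream of Haao, a summit of 85.3 stood 59.0 kb away, beyond the limit, and had Haao as its nearest protein-coding TSS. The summit at 10.6 kb had 92.1.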
